A study of Mus musculus with 6 samples.

Results

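Rora and Zfp683 stood furthest apart between iNKT1 cells in which the TGF-beta receptor gene Tgfbr2 was targeted and their controls, in opposite directions, among 8 genes for transcription factors that set the fate of invariant natural killer T (iNKT) cells. The 8 genes were Tbx21, Eomes, Zbtb16, Gata3, Rora, Id2, Zfp683 and Prdm1. They were taken by name from a table of 17985 genes, and each name matched 1 row. iNKT cells are T cells with a nearly invariant antigen receptor that sees lipids, and they mature in the thymus into subsets that resemble helper T cells. The factor PLZF (gene Zbtb16) gives the lineage its innate-like character. T-bet (Tbx21) then marks the interferon-producing iNKT1 subset, GATA3 the IL-4-producing iNKT2 subset and ROR factors the IL-17-producing iNKT17 subset. Eomesodermin (Eomes) is a T-box relative of T-bet, ID2 holds back the DNA-binding E proteins, and Hobit (Zfp683) and Blimp-1 (Prdm1) are related zinc-finger repressors known for keeping lymphocytes resident in tissue.

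Messenger RNA was sequenced from thymic iNKT1 cells of mice on a C57BL/6 background that were not treated. The control group, Ctrl, carried the genotype Tbx21CreTg;Rosa26-LSL-YFP+/+, a Cre recombinase transgene tied to Tbx21 with a Cre-activated yellow fluorescent reporter. The conditional knockout group, cKO, carried Tbx21CreTg;Rosa26-LSL-YFP+/+;Tgfbr2F/F, so that Cre also acts on loxP-flanked Tgfbr2. Both groups therefore carried the Tbx21-linked Cre transgene and the reporter, and deletion can occur only in cells that have switched Cre on. There were 3 libraries a group. The age of the mice and the gate used to sort the cells are not given in the sources used here. The 3 replicates are described as independent, but whether they came from separate animals is not given, so the p-values measure the spread between these libraries, which may be technical. Messenger RNA was measured in bulk, where fewer cells that express a gene and less RNA of that gene per cell cannot be told apart.

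Library totals ran from 28832779 to 68092478 reads, and levels are in CPM, each gene's reads scaled to a fixed library total, with 1 read equal to 0.0147 to 0.0347 CPM. Both replicate 3 libraries stood apart, with 4406 (Ctrl) and 4590 (cKO) genes listed at 0 against 0 to 5 genes in the other 4 libraries, and each group held 1 of them. Tgfbr2, the targeted gene, was at 461, 461 and 425 CPM across the Ctrl replicates in order, against 289.8, 257.6 and 274 CPM in cKO, which left 61.0% of the Ctrl mean over the whole gene (limma adjusted p 0.0207). The cells carried RNA of their labelled type. Cd3e was at 1126 CPM or more and Il2rb at 2357 CPM or more in all 6 libraries, and 9 of 10 markers of T cells and iNKT1 cells were matched, summing to 9004 to 11239 CPM in Ctrl against 9210.3 to 12939 CPM in cKO. Tbx21 itself is 1 of these markers. Defining genes of other cells were low. Ncr1 of natural killer cells stayed at 2.28 CPM or less, Cd8a at 3.85 CPM or less, Cd79a of B cells at 2.91 CPM or less and Lyz2 of myeloid cells at 2.62 CPM or less, while Ighm (343 to 454 CPM) and Klra9 (96.2 to 504 CPM) were higher.

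Ordered by level per length in Ctrl, the 8 genes spanned more than 3 powers of 10. Levels between genes were compared as CPM per kilobase (kb) of exon in the GENCODE M21 annotation. Id2 came first at 1187 ± 134 CPM per kb (SD, n = 3), and ranked 14 among 17825 genes. Tbx21 followed at 313 ± 34.6, Zfp683 at 146 ± 5.36 and Gata3 at 50.7 ± 1.53 CPM per kb (SD, n = 3 each). Zbtb16 at 9.43 ± 1.74, Prdm1 at 5.07 ± 0.596 and Rora at 3.48 ± 1.05 CPM per kb formed a lower tier, and Eomes was last at 0.186 ± 0.101 CPM per kb. The libraries of neighbouring genes in this order did not overlap, except for those of Prdm1 and Rora. None of 37 other transcription factors of iNKT development that were matched stood above Id2 or Tbx21 on this scale, 1 stood above Zfp683 and 5 above Gata3. In cKO the order was the same except that Rora, at 7.33 ± 0.568 CPM per kb, had the higher mean of the pair with Prdm1, at 6.50 ± 1.13, again with overlapping libraries.

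**Figure D1:**
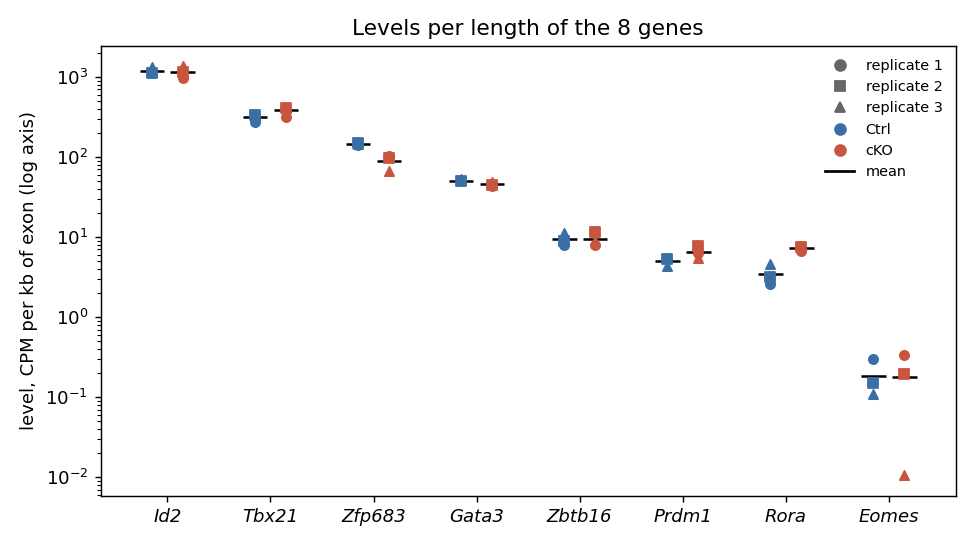
Level of each gene in CPM per kb of exon (vertical log axis) in the 3 Ctrl (blue) and 3 cKO (red) libraries, with symbols for replicates and a bar for the mean. Id2 sits near 1187 and Eomes near 0.186 CPM per kb in Ctrl, and Prdm1 and Rora are the neighbours whose libraries overlap.

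Differences between the groups were tested with limma on log2(CPM + 1) over the 15691 genes that averaged 1 CPM or more, with Benjamini-Hochberg adjustment and a threshold of 0.05. Of the 8 genes 7 were tested, and Eomes lay under that mean. None of the 7 passed, while 0.663% of all tested genes did. Unadjusted limma p-values were under 0.05 for 2 of them, Rora and Zfp683. The share of all tested genes under that value was not counted, so this and like counts for the lists below have no background. The replicate numbers were taken to pair the libraries, because same-numbered libraries deviated from their group means together, although replicates 1 and 2 also did so across numbers. This pairing was judged on these same data, and the titles give only replicate numbers, so p-values with the block assume it. With the replicate number as a block, limma called 2 of the 7, Rora higher and Zfp683 lower in cKO, against 2.87% of all tested genes. The same pair were called by DESeq2, fitted on group only, and by edgeR's quasi-likelihood test with the block. Of all 15691 tested genes these called 552 and 469. Without the block edgeR called none of the 7, and 41 of all tested genes. The median log2 difference of the 7 was -0.00068, beside -0.038 over all tested genes, whose middle 50% lay between -0.17 and 0.080. Separate groups, without overlap, were seen for 3 of the 7 genes, Rora, Zfp683 and Gata3, and for 11.0% of all tested genes.

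**Figure D2:**
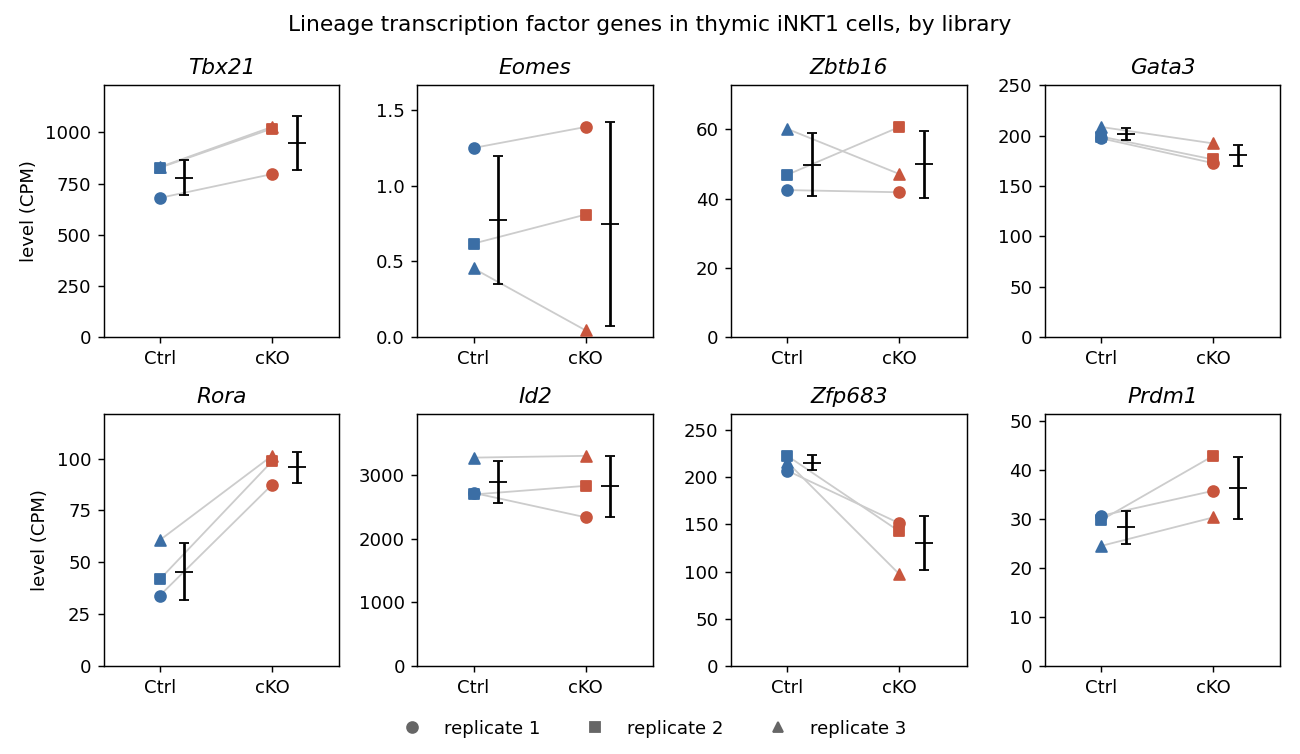
Level in CPM (vertical axes from 0) of each of the 8 genes in every library. Grey lines join libraries with the same replicate number, and black bars are the mean ± SD of 3 libraries. Rora is higher and Zfp683 lower in cKO in every pair without overlap of the groups, and the other genes overlap or, for Gata3, differ by little.

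**Figure D3:**
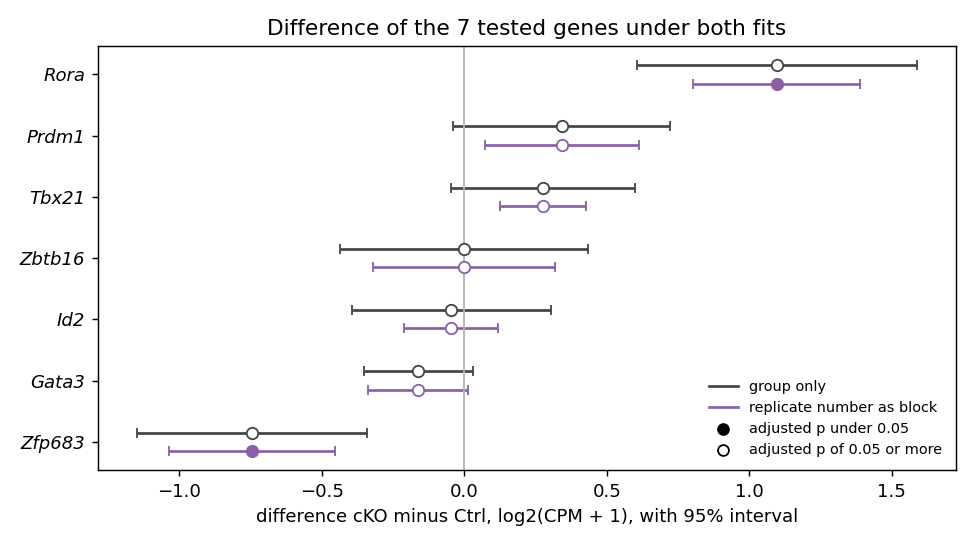
Difference between cKO and Ctrl on the log2(CPM + 1) scale with its 95% interval (horizontal axis) for the 7 tested genes, without the block (grey) and with the replicate number as a block (purple), filled where the adjusted p is under 0.05. Only the blocked values of Rora (1.10) and Zfp683 (-0.74) are filled.

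The T-box factors come first. Tbx21 (ENSMUSG00000001444, chromosome 11, 97098071 to 97115331, minus strand), the gene for T-bet, was at 679.8, 828 and 830.4 CPM across the Ctrl replicates in order, against 796, 1019 and 1027 CPM across those of cKO. Each cKO library was above the Ctrl library of its number, by 1.17-fold, 1.23-fold and 1.24-fold, but the groups overlapped because cKO replicate 1 lay under Ctrl replicates 2 and 3. The log2 difference was 0.28 with a 95% interval from -0.045 to 0.60 (limma adjusted p 0.984), and the interval was 0.13 to 0.43 with the block (adjusted p 0.0771). Tbx21 passed under none of the alternatives tried, over which its adjusted p ran from 0.0561 to 0.999997. Whether reads of the Cre transgene can count toward Tbx21 is not given in the sources used here. Both groups carried it.

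Eomes (ENSMUSG00000032446, chromosome 9, 118478212 to 118486132, plus strand), which drives natural killer and memory T cell programmes, was hardly read. Its levels were 1.25, 0.617 and 0.453 CPM in Ctrl against 1.39, 0.809 and 0.0441 CPM in cKO, or 42, 19 and 24 reads against 40, 34 and 3 reads. The groups overlapped throughout, and within each group the replicate 3 library was the lowest. In comparison, the 4098 genes listed at 0 in both replicate 3 libraries had a median mean level of 1.94 CPM in the other 4 libraries, with 90% of them between 0.880 and 9.03 CPM, and Eomes had 1.02 CPM there. Without the filter on low values its log2 difference was -0.076, with an interval from -1.11 to 0.96 (limma adjusted p 0.999973). In replicates 1 and 2 alone the difference was 0.12 (adjusted p 0.999535), so its sign turned without the replicate 3 libraries. Eomes starts 2.30 Mb from the end of Tgfbr2 on the same chromosome.

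The genes that T-bet and Eomes are known to support were examined as a list of 18, all of which were tested. S1pr5, a sphingosine-1-phosphate receptor used for egress, rose from 7.36 ± 1.83 to 37.2 ± 13.7 CPM (limma adjusted p 0.0410, SD over n = 3 a group). Xcl1, a chemokine for cross-presenting dendritic cells, fell from 181 ± 26.6 to 91.5 ± 6.51 CPM (limma adjusted p 0.0281). These were the only calls of limma without the block. edgeR without the block called none of the 18, and 41 of all tested genes. DESeq2 called 6 of the 18, and 552 of all tested genes. Limma called none when any library but cKO replicate 3 was left out and 1 without that library. With the block 5 rose and 1 fell, and the further calls, named after their values were seen, were Ccl5, Il18rap, Il12rb2 and Il2rb. Ccl5, a chemokine, was at 167 ± 25.5 CPM in Ctrl against 372 ± 75.9 CPM in cKO (adjusted p 0.000780 with the block), and Il18rap, a subunit of the IL-18 receptor, at 327 ± 25.3 and 535 ± 72.3 CPM (0.00158). Il2rb, the shared IL-2 and IL-15 receptor chain, was higher in cKO in every pair, at 2357, 2897 and 3521 CPM in Ctrl against 2948, 3784 and 4383 CPM in cKO (0.0166 with the block). Of the 18 genes 13 had the higher mean of log2 values in cKO, with a median log2 difference of 0.22, beside -0.038 over all tested genes. Higher in cKO without overlap of the groups were S1pr5, Ccl5, Il18rap, Il12rb2 and Ifng. Lower without overlap were Xcl1, Gzma (188 ± 34.8 CPM in Ctrl, 75.2 ± 52.8 in cKO, limma adjusted p 0.549) and Fasl (292 ± 22.8 and 230 ± 24.8 CPM, 0.538). Such separation was seen for 11.0% of all tested genes.

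Zbtb16 (ENSMUSG00000066687, chromosome 9, 48654311 to 48835945, minus strand), the gene for PLZF, was at 42.5, 46.9 and 60.1 CPM in Ctrl against 41.8, 60.7 and 47.1 CPM in cKO. The groups covered nearly the same range, and the pairs went in different directions, with replicate 2 higher and replicate 3 lower in cKO. Its log2 difference was -0.00068 with a 95% interval from -0.44 to 0.44 (limma adjusted p 0.999981), and its sign turned under TMM scaling (0.063) and upper quartile scaling (0.042). Among 7 genes tied to PLZF, limma called 1, Ccr2, a receptor for inflammatory chemokines, which rose from 161 ± 31.4 to 384 ± 59.7 CPM (SD, n = 3 each; adjusted p 0.0352). The call was lost under TMM scaling, under edgeR without the block, and without Ctrl replicate 1 or 2 or cKO replicate 2 or 3. With the block it also called Il12rb1, at 108 ± 29.1 CPM in Ctrl against 172 ± 30.0 in cKO (adjusted p 0.00720), and Il4, at 35.5 ± 10.01 and 18.6 ± 3.65 CPM (adjusted p 0.00806), both named after their values were seen. Il12rb1 encodes an IL-12 receptor chain and Il4 the cytokine that PLZF-high iNKT2 cells make.

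Gata3 (ENSMUSG00000015619, chromosome 2, 9857078 to 9890034, minus strand) varied least among the 8 genes within Ctrl. Its levels were 197, 199 and 209 CPM in Ctrl against 173, 176 and 192 CPM in cKO, so every cKO library lay below every Ctrl library, and the cKO mean was 89.5% of the Ctrl mean. The log2 difference of -0.16 had a 95% interval from -0.35 to 0.030 (limma adjusted p 0.999981) and did not pass with the block (0.444). The gap between the groups closed under TMM and upper quartile scaling, where they overlapped. Of 14 genes tied to GATA3 and the iNKT2 subset, 11 were tested and limma called none, with 4 at an unadjusted p under 0.05. DESeq2 called 2 of them, edgeR none, and edgeR with the block 4. Over all tested genes these called 552, 41 and 469. Cd4 and Il4 had the smallest p-values (adjusted p 0.325 and 0.421). With the block limma called Il4 lower, and higher Cd4 (121 ± 8.84 CPM in Ctrl, 176 ± 27.8 in cKO, adjusted p 0.0169), Ccr4 (10.7 ± 3.48 and 23.8 ± 10.5 CPM, 0.0115) and Plac8 (8.32 ± 3.81 and 23.0 ± 14.4 CPM, 0.00613). Cd4 encodes the coreceptor and Ccr4 a receptor for chemokines of skin and type 2 responses. The members of this list that moved therefore went in both directions.

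Rora encodes the nuclear receptor ROR alpha, which acts in IL-17-producing lymphocytes and is needed for type 2 innate lymphoid cells. It lies on the plus strand of chromosome 9 (ENSMUSG00000032238, 68653786 to 69388246) and has 2 protein-coding transcripts in GENCODE M21 with different starts, which counts per gene do not separate. Rora was at 34.0, 41.8 and 60.7 CPM across the Ctrl replicates in order, against 87.4, 98.7 and 101 CPM across those of cKO. All cKO libraries were above all Ctrl libraries, also under TMM and upper quartile scaling, and the mean went from 45.5 ± 13.7 to 95.8 ± 7.42 CPM (SD, n = 3 each), a ratio of 2.11. The ratio within pairs was 2.57 and 2.36 in replicates 1 and 2 and 1.67 in replicate 3, whose Ctrl library was the highest of its group. The log2 difference was 1.10 (standard error 0.21), with a 95% interval from 0.61 to 1.59, and 1.12% of all tested genes differed by as much or more in either direction.

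Rora did not pass without the block (limma adjusted p 0.114) and rose with it (0.00236), and replicates 1 and 2 alone gave 1.28 (0.000996). Over 13 alternatives other than leaving out a library, the adjusted p ran from 0.000152 to 0.305 and passed in 6. Leaving out Ctrl replicate 3 brought limma without the block past the threshold (0.0396), and leaving out any other library did not. The authors' deposited table gave Rora a log2 fold change of 1.13 with an adjusted p of 0.000601 and marked it as higher.

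Rorb, another gene of the ROR family, was at 16.6 to 23.5 CPM in replicates 1 and 2 of both groups and listed at 0 in both replicate 3 libraries, the pattern of the genes that set replicate 3 apart. Of 15 genes tied to ROR factors and iNKT17 cells, 9 were tested and limma called none, with 3 at an unadjusted p under 0.05. DESeq2 called 2, edgeR none, and edgeR with the block 1. Over all tested genes these called 552, 41 and 469. The smallest p-values were those of Nrp1, a semaphorin coreceptor, at 35.3 ± 11.3 CPM in Ctrl against 11.4 ± 3.66 in cKO (adjusted p 0.148, and 0.000641 with the block), and Aqp3, a water and glycerol channel, at 33.2 ± 1.21 and 20.9 ± 3.95 CPM (adjusted p 0.259). Both had the lower level in cKO, opposite to Rora.

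Markers of other cells that use Rora were read at different levels. Of 6 markers of type 2 innate lymphoid cells 3 were matched, summing to 1.85 to 13.0 CPM in Ctrl against 5.51 to 13.0 CPM in cKO. Il1rl1, which encodes the IL-33 receptor of those cells, was at 0.510 CPM in Ctrl replicate 3 and 0.631 CPM in cKO replicate 3, and at 5.64 to 9.84 CPM in the other libraries of both groups. Of 5 gamma delta T cell markers 4 were matched, all but Trdc, summing to 277 to 476 CPM in Ctrl against 220.1 to 412 CPM in cKO. Most of that sum came from Tcrg-C1 (115 ± 37.8 CPM in Ctrl, 91.9 ± 32.7 in cKO) and Tcrg-C2 (215 ± 46.3 and 184 ± 51.3 CPM). Both had the lower mean in cKO. For Cd163l1 of that list the Ctrl libraries held 8.65, 13.8 and 20.8 CPM and the cKO libraries 21.5, 26.6 and 30.1 CPM (limma adjusted p 0.0272 with the block), while Sox13 was at 2.40 to 30.9 CPM over all libraries. Klrg1 was called higher with the block, at 1.28 to 1.75 CPM in Ctrl against 3.33 to 4.38 CPM in cKO (limma adjusted p 0.0403 with the block). Of this list Klrg1 and of the gamma delta list Cd163l1 were named after their values were seen. The part of these cells in the Rora difference was not tested.

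Id2 (ENSMUSG00000020644, chromosome 12, 25093801 to 25096092, minus strand), the most abundant of the 8 genes, was at 2718, 2694 and 3273 CPM in Ctrl against 2335, 2829 and 3300.2 CPM in cKO. The groups overlapped, replicate 3 was highest in both, and cKO was lower in replicate 1 and at 1.05-fold and 1.01-fold of Ctrl in replicates 2 and 3. The log2 difference was -0.045 with a 95% interval from -0.39 to 0.30 (limma adjusted p 0.999981), narrowing to -0.21 to 0.12 with the block, and its sign turned under TMM scaling (0.019). Of 6 genes for E proteins and other ID proteins, 4 were tested and limma called none, with 1 at an unadjusted p under 0.05. DESeq2 also called none, as did edgeR with or without the block. Id3, the ID protein that marks naive T cells, was at 33.2, 29.9 and 31.3 CPM in Ctrl against 11.8, 12.4 and 30.8 CPM in cKO (limma adjusted p 0.751). Its cKO level was thus low in replicates 1 and 2 and at the Ctrl level in replicate 3, and limma called it lower in replicates 1 and 2 alone (adjusted p 0.00294). Tcf12, which encodes the E protein HEB, was at 89.2 ± 8.53 CPM in Ctrl against 105 ± 18.6 in cKO (adjusted p 0.999981).

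Zfp683 (ENSMUSG00000049410, chromosome 4, 134053838 to 134058996, plus strand), the gene for Hobit, was at 207, 223 and 216 CPM across the Ctrl replicates in order, against 151, 143 and 97.2 CPM across those of cKO. The cKO libraries all lay below the Ctrl libraries, also under TMM and upper quartile scaling, and the mean went from 215 ± 7.88 to 130.3 ± 29.0 CPM (SD, n = 3 each), 60.5% of the Ctrl level. The Ctrl libraries were close to each other, and cKO replicate 3 was the lowest library. Within pairs cKO stood at 0.730-fold, 0.640-fold and 0.450-fold of Ctrl. The log2 difference was -0.74 (standard error 0.17), with a 95% interval from -1.15 to -0.34, and 2.36% of all tested genes differed by as much or more in either direction.

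Zfp683 did not pass without the block (limma adjusted p 0.227) and fell with it (0.0167). Replicates 1 and 2 alone gave -0.55 (0.0119). Over the same 13 alternatives the adjusted p ran from 0.000165 to 0.284 and passed in 6. Leaving out cKO replicate 3 brought limma without the block just past the threshold (0.0499), and leaving out any other library did not. In the authors' deposited table Zfp683 had a log2 fold change of -0.68 with an adjusted p of 0.282 and was not marked.

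Prdm1 (ENSMUSG00000038151, chromosome 10, 44437177 to 44528501, minus strand), the gene for Blimp-1, differed in the other direction from its relative Zfp683. It was at 30.6, 29.7 and 24.5 CPM in Ctrl against 35.7, 42.8 and 30.3 CPM in cKO. Each cKO library was above the Ctrl library of its number, by 1.17-fold, 1.44-fold and 1.24-fold, and the groups overlapped only because cKO replicate 3 lay under Ctrl replicate 1; under TMM and upper quartile scaling they did not overlap. The log2 difference was 0.34 with a 95% interval from -0.039 to 0.72 (limma adjusted p 0.935), and from 0.072 to 0.61 with the block, where it also did not pass (0.256).

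Genes that Hobit and Blimp-1 are known to repress in resident lymphocytes were a list of 7, all tested. Limma called 2, both higher, and S1pr5 (above) was 1 of them. edgeR without the block called none and DESeq2 called 3, against 41 and 552 of all tested genes. Limma called none when a Ctrl replicate or cKO replicate 2 was left out and 1 without cKO replicate 1 or 3. With the block it also called Tcf7, the gene for TCF-1 of memory and naive T cells, at 272 ± 35.3 CPM in Ctrl against 376 ± 12.1 CPM in cKO (adjusted p 0.0239), named after its values were seen. Klf2, which drives S1pr1, was at 260.2, 179.6 and 106 CPM in Ctrl against 338, 146 and 126 CPM in cKO (limma adjusted p 0.999981). S1pr1 was at 25.2 ± 8.15 and 21.6 ± 3.14 CPM (adjusted p 0.999981). So 6 of the 7 had the higher mean of log2 values in cKO, but the egress receptor S1pr1 was not among them. Klf2 was among them although it was lower in cKO in replicate 2. The median log2 difference of the 7 was 0.39, beside -0.038 over all tested genes. That median was the value of Ccr7, at 1.32, 0.690 and 7.95 CPM across the cKO replicates in order. Its Ctrl level was 1.52 ± 0.466 CPM (limma adjusted p 0.999981), so only cKO replicate 3 lay above the Ctrl mean. In a separate list of 8 genes that Blimp-1 opposes in lymphocytes, 6 were tested and limma called none without or with the block, with 3 at an unadjusted p under 0.05. DESeq2 called none, as did edgeR with or without the block. The smallest p-values were those of Myc, a transcription factor that drives growth, at 329 ± 30.7 CPM in Ctrl against 248 ± 41.5 in cKO (adjusted p 0.582), and of Id3.

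Regulatory sequence is shown for Rora, the gene with the largest difference, and for Prdm1, the only gene of the 6 matched whose window held the SMAD box CAGAC, the short element that SMAD proteins of the TGF-beta pathway bind. Windows of 250 bases before a RefSeq start (build GRCm38.p6) were matched for 6 of the 8 genes and searched on both strands for the SMAD box, the T-box element GGTGTGA, the ROR element AGGTCA and the E-box CANNTG bound by E proteins. The Rora window is chr9:68653536-68653785 on the plus strand and the Prdm1 window chr10:44458749-44458998 on the minus strand, and capitals mark matches, which did not overlap each other. The Rora window ends where the annotated gene begins, and the Prdm1 window lies inside the annotated gene, before a start within it.
Rora: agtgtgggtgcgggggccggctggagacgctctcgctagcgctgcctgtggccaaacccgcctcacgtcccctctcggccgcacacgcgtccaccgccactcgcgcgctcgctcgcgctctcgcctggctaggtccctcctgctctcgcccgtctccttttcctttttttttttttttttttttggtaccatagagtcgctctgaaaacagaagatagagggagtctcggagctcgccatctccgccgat
Prdm1: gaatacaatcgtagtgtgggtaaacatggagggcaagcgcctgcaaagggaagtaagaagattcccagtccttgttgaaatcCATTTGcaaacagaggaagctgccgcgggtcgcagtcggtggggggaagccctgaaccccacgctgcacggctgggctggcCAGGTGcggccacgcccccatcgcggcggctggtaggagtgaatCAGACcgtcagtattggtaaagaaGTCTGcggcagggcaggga
The Rora window held none of the 4 motifs. GENCODE M21 gives Rora 2 protein-coding starts and Prdm1 3, and 1 window was searched for each, so other starts were not covered. The Prdm1 window held 2 SMAD boxes and 2 E-boxes, and E-boxes were also in the windows of Tbx21 and Id2. Among all 32851 RefSeq windows of this length, 42.2% held the SMAD box, 66.2% the E-box, 14.0% the ROR element and 3.33% the T-box element. A match or its absence describes these letters only.

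Beyond the 8 genes, 36 of 38 other transcription factors of iNKT and innate lymphocyte development were tested. Limma called 1, Runx1, a RUNX factor needed early in T cell development, which rose from 46.0 ± 4.08 to 86.9 ± 5.46 CPM (SD, n = 3 each; adjusted p 0.0189). This call was lost under TMM scaling, under edgeR without the block, and when a Ctrl replicate or cKO replicate 2 was left out. With the block it called 5, all higher in cKO. Besides Runx1 and Tcf7 these were Stat4, the transducer of IL-12, at 163 ± 15.5 CPM in Ctrl against 229 ± 13.4 in cKO (adjusted p 0.0122), Irf8, an interferon regulatory factor, at 52.9 ± 14.6 and 85.5 ± 17.9 CPM (0.00498), and Myb, at 9.41 ± 7.01 and 19.1 ± 13.3 CPM (0.0170), all named after their values were seen. The median log2 difference of the 36 was 0.080, beside -0.038 over all tested genes. Of 35 other T-box, GATA, ROR and PRDM family genes, 16 were tested, and limma called none with or without the block, with 0 at an unadjusted p under 0.05 and none by DESeq2 or edgeR. The family members that averaged 5 CPM or more in either group were Mga, Rorb, Prdm2, Prdm4, Prdm9, Prdm10, Prdm11 and Prdm15. The smallest p-values of the 16 were those of Prdm11, with 14.0 ± 0.672 CPM in Ctrl against 11.3 ± 2.10 in cKO, and Prdm16, with 2.92 ± 0.903 against 3.90 ± 1.13 CPM. Of those named Mga, which carries a T-box and binds MAX, was at 47.3 to 114 CPM, with both replicate 3 libraries lowest.

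**Figure D4:**
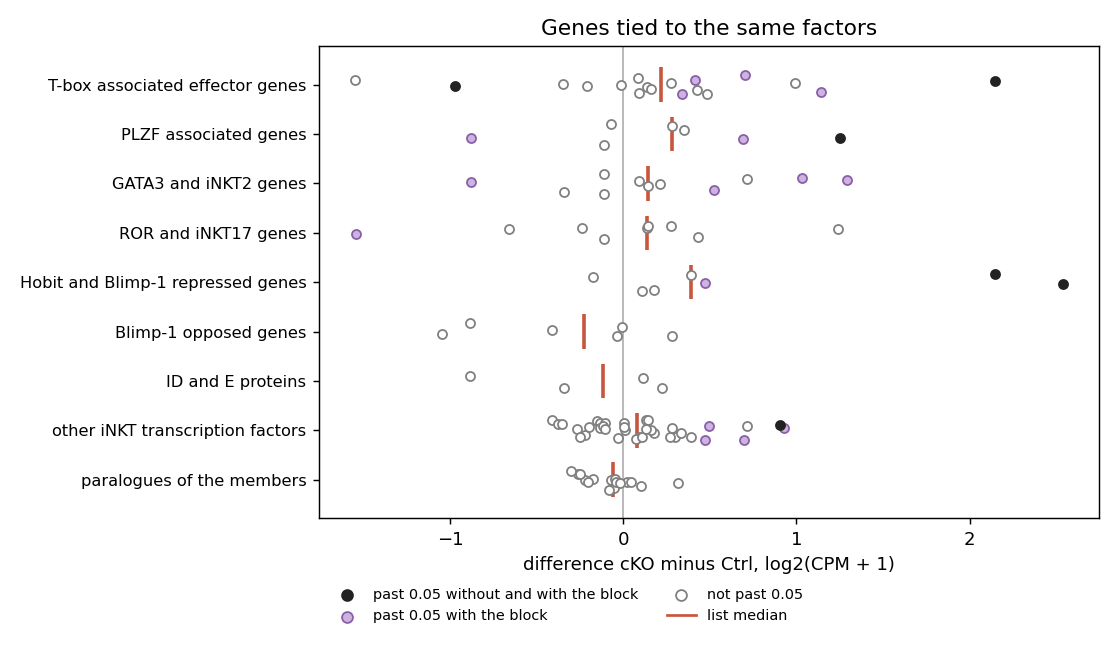
Difference between cKO and Ctrl on the log2(CPM + 1) scale (horizontal axis) for each tested gene of 9 lists tied to the 8 factors, 1 point a gene. Black points passed with and without the replicate block, purple points with the block only, white points under neither, and red bars are list medians, from -0.23 to 0.39.

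Likeness of pattern was measured as Pearson's r of log2(CPM + 1) over the 6 libraries, among 10133 named genes that averaged 5 CPM or more. These values rest on 6 libraries that share depth, replicate and group differences, and describe them without a test. The nearest genes were picked for their likeness, so a pattern that they share with a factor gene follows from that choice. Nearest to Rora were Gimap3 (r = 0.989) and F2rl2 (r = 0.989), both with every cKO library above every Ctrl library. Nearest to Zfp683 were Mettl1 and Rbpj (r = 0.995 each). Rbpj was at 50.1, 57.6 and 57.6 CPM in Ctrl against 36.6, 36.4 and 21.8 CPM in cKO, with its lowest level in cKO replicate 3 like Zfp683. Tbx21 was nearest to Thap1 (0.988) and Cd5 (0.985), Gata3 to Nop2 (0.994) and Cxxc5 (0.993), and Prdm1 to Uhrf2 (0.988) and Bach2 (0.986). Id2 was nearest to Nusap1 (0.996) and Ccnf (0.995), which were highest in the replicate 3 library of each group. Zbtb16 was nearest to Sirt6 (0.992) and Agbl5 (0.968).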

How the data were processed

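Per the submitters' processing notes, Trimmomatic 0.33, STAR 2.5.2, HTSeq 0.6.1 and edgeR were used with build mm10, with no role or order given. The authors deposited CPM for each library, and per the file headers their edgeR comparison (log2 fold changes, p-values, a score from the likelihood ratio, and marks). The CPM were whole multiples of 1 read (100% of values within 0.001 read), so read counts were recovered. The columns name WT and KO, taken as Ctrl and cKO by replicate number. The strand setting is not given in the sources used here. Exons of Gata3, Rora and Eomes overlap antisense genes that were not analysed here. Exons of Gata3 also overlap a protein-coding gene on the same strand, by 77 bases, which was not analysed either.

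Tests used limma 3.58.1 (R 4.3.3) on log2(CPM + 1), pseudocount 1, mean-variance trend, robust moderation, two-sided, adjusted over all tested genes; this scale understates changes of low genes. Recovered reads were tested with edgeR 4.0.16 and DESeq2 1.42.0. DESeq2 was fitted on group only, without the block. The limma, edgeR and DESeq2 fits were tested on simulated data. The simulated libraries held no difference between replicate numbers, so they do not show how the fits behave with replicate 3 set apart. Libraries within a group differed by more than sampling noise (chi-square per degree of freedom 18.7 or more). Deviations from group means of same-numbered libraries correlated at 0.855, 0.687 and 0.924, so the numbers were taken to pair the libraries; the pairing comes from the labels' replicate numbers. Ctrl replicate 2 with cKO replicate 1 (0.718) and Ctrl replicate 1 with cKO replicate 2 (0.578) also correlated, while replicate 3 correlated negatively with the others, so replicate 3 is set apart but pairs 1 and 2 are not clearly separated. Levels per length used GENCODE M21 exons, since the deposited lengths were a median 1.26 times these.

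The genes and lists were chosen with earlier results of these data known. Named from each list were up to 4 genes past the threshold by smallest p, or the 2 with the smallest p where none passed, and the 2 genes most like each of the 8 with a mean of at least 5 CPM. Genes called with the block only, and single markers such as Il1rl1, Sox13, Ighm and Klra9, were named after their values were seen. The same holds for Klf2, S1pr1, Ccr7, Ifng, Gzma and Fasl. Alternatives were other pseudocounts, filters, scalings and tools, the block, replicates 1 and 2 alone, and leaving out each library. Results for some genes of the lists are not reported here.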

Additional observations from a re-analysis of the deposited data

How the results depend on the processing

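Tbx21, Gata3 and Prdm1 kept their direction and did not pass in any of 13 alternatives or 6 omissions of a library. Rora (main value 1.10) kept its direction and passed with the replicate block (1.10, also without the filter on low values), TMM scaling with the replicate block (1.16), edgeR with the replicate block (1.16), DESeq2 (1.12) and replicates 1 and 2 only (1.28). Zfp683 (-0.74) passed under the same settings, at -0.74 in both limma fits with the replicate block, -0.68 with TMM and the block, -0.71 with edgeR and the block, -0.69 under DESeq2 and -0.55 in replicates 1 and 2. Thus 2 of the 8 genes passed under each of these 6 settings and 0 under the other 7. Leaving out a library gave 0 to 1, with Rora from 0.91 to 1.32 and Zfp683 from -0.86 to -0.55. The block changed no other call among the 8 genes. The block without the filter was added after seeing the data, to give Eomes a blocked value.

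Genes near 0 turned sign. Eomes, at -0.076 without the filter, was 0.12 in replicates 1 and 2. Id2 was 0.019 with TMM, whether or not the replicate block was used, 0.017 under edgeR and 0.021 under DESeq2, and -0.17 to 0.084 when a library was left out. Zbtb16 was 0.063 with TMM (same with the replicate block), 0.042 under upper quartile scaling, 0.047 under edgeR, 0.042 under edgeR with the block, 0.048 under DESeq2, 0.17 in replicates 1 and 2, and -0.15 to 0.14 when a library was left out.

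Genes called overall were 104, against 451 with the replicate block, 449 with the block and no filter, 513 with TMM and the block, 469 under edgeR with the block, 41 under edgeR, 552 under DESeq2, 296 in replicates 1 and 2, and 14 to 97 when a library was left out. Called list members moved likewise. In the order replicate block, block without filter, TMM with block, edgeR with block and DESeq2, counts were 6, 7, 7, 7 and 6 for T-box effector genes (main 2, and 4 at a mean of at least 5 CPM), 3, 3, 4, 4 and 2 for PLZF genes (main 1), 4, 4, 5, 4 and 2 for GATA3 genes (main 0), 1, 1, 2, 1 and 2 for ROR genes (main 0) and 5, 5, 6, 5 and 4 for other factors (main 1). Blimp-1 opposed genes (main 0) had 1 call under TMM with the block. Replicates 1 and 2 gave 1 ROR gene, 2 Blimp-1 opposed genes, 1 ID or E protein gene and 4 other factors. TMM alone gave 0 for PLZF genes and other factors, and edgeR 0 for these, T-box effector genes and Hobit repressed genes (main 2). Leaving out a library gave 0 to 1 T-box effector gene, 0 to 1 PLZF gene, 0 to 1 Hobit repressed gene, 0 to 1 Blimp-1 opposed gene, 0 to 1 ID or E protein gene and 0 to 1 other factor. Id2 turned sign without Ctrl replicate 3 or cKO replicate 1, and Zbtb16 without either of these or cKO replicate 3. The causes were not tested, but each omission leaves fewer samples.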
